A study of Mus musculus with 6 samples.

Results

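Lysosomal hydrolases, the membrane proteins of the lysosome and the subunits of its proton pump are encoded by the 50 genes described here, out of 21899 genes in the deposited liver expression table. They were taken by gene symbol: 9 cysteine cathepsins, 4 other peptidases, 10 glycosidases, 3 sulfatases, 8 genes of lipid and sphingolipid breakdown, 7 lysosomal membrane proteins and 9 genes of the vacuolar ATPase (V-ATPase). All 50 were found, and all 50 passed the filter on low counts. The study set livers of wild-type C57BL6J mice on a diet that lacks methionine and choline (MCD) against livers of the same strain on a diet that supplies both (MCS), a dietary model of metabolic dysfunction-associated steatohepatitis. Each diet was given for 6 weeks, and each had 3 polyA RNA-seq libraries made from whole liver RNA. Neither sex nor age is given in the labels used here. The labels number the libraries of a diet 1 to 3 and do not say that each came from its own animal, so the p-values measure the spread between these libraries, which may be partly technical.

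Lysosomes are acidic compartments in which proteins, glycans, sulfated sugars and lipids are taken apart. The V-ATPase pumps protons into them: its peripheral V1 sector splits ATP, and its membrane sector V0 carries the protons. In the liver, hepatocytes use lysosomes for autophagy and lipid droplet turnover, and macrophages use them to digest what they engulf. Many lysosomal genes carry a palindromic promoter element, called CLEAR, that is bound by the transcription factors TFEB, TFE3 and MITF.

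The promoter sequences are shown first, because many lysosomal genes are known to carry the CLEAR-type element. The choice by symbol did not use sequence, but it took known lysosomal genes. A higher share than among all promoters is therefore not an independent result. RefSeq promoters (GRCm38.p6, 250 bases before to 50 bases after each start) were matched by symbol for 42 of the 50 genes, 47 promoters in all. The 6-letter core CACGTG, which reads the same on both strands, was in 14 of the 47 (29.8%), against 7.15% of all 32851 promoters in the same table. The 8-letter form TCACGTGA, which contains the core and is also a palindrome, was in 6 of the 47 (12.8%), against 0.974% of all promoters. These are matches of letters in a window of 300 bases, not measured binding. By gene, the core was found in 4 of the 17 matched members that rose on MCD (23.5%) and both members that fell. It was found in 8 of the 23 matched members that did not pass the test (34.8%), beside 8.09% of all 27025 genes with a promoter.

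The stretches below show the core in members from each of these outcomes, 5′ to 3′ on the gene's own strand, all upstream of the start. Capitals mark the core, or the whole 8-letter form where it is present. Among members that rose, the Ctsd stretch is chr7:142387899-142388077 (minus strand), Gla is chrX:134601173-134601253 (minus), Atp6v1a is chr16:44139364-44139411 (minus) and Lgmn is chr12:102439116-102439161 (minus). The members that fell are Gaa at chr11:119267803-119267848 (plus) and Ctsf at chr19:4855066-4855111 (plus). The members that did not pass are Lamp1 at chr8:13159080-13159160 (plus), Mcoln1 at chr8:3500428-3500500 (plus) and Ctsa at chr2:164833740-164833772 (plus).
Ctsd: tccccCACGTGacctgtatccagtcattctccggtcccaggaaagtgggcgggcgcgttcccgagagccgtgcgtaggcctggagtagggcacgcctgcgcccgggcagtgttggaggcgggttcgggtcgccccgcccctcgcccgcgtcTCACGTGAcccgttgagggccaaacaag
Gla: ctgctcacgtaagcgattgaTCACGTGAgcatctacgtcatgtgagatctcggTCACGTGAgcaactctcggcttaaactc
Atp6v1a: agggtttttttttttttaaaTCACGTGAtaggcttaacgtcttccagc
Lgmn: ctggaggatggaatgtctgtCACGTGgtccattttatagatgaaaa
Gaa: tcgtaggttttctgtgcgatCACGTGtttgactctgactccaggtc
Ctsf: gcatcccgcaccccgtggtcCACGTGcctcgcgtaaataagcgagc
Lamp1: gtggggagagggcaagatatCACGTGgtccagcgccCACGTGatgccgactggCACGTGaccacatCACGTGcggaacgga
Mcoln1: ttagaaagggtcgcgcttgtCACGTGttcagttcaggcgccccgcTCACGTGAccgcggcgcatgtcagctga
Ctsa: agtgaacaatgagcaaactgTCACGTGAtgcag
The stretch of Lamp1 holds 4 copies of the core in its last 81 bases before the start, the most among those printed. Ctsd, Gla and Mcoln1 hold 2 each. The element thus stood in front of members that rose, fell and did not pass. In this window 13 of the 17 matched members that rose had no copy, beside a background in which only 8.09% of all genes had the core.

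The libraries held 16615469 to 21322771 counts. Levels are given below as TMM-scaled CPM, counts relative to the scaled size of the library, and changes as log2 fold changes of MCD over MCS with their standard errors. Adjusted p-values are from edgeR's quasi-likelihood test with Benjamini-Hochberg adjustment over the 12599 genes tested, and a gene is said to rise or fall where the adjusted p was under 0.05. Levels of different genes are set side by side only in TPM, a measure of transcripts that is per length. Hepatocyte markers, none of them at 0, had the highest sum of the cell type lists in every library. Their summed levels were 99182 to 123424 CPM on MCS and 62628 to 105053 CPM on MCD. As a share of all counts, which does not use the TMM factors, they took up 8.09%, 8.08% and 10.8% on MCS. On MCD they took up 10.1%, 10.9% and 8.80%. Replicate 3 of each diet stood apart in markers of sinusoidal endothelium, which summed to 371 CPM in MCS replicate 3 and 293 CPM in MCD replicate 3 and to between 55.6 and 123 CPM in the other 4 libraries.

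Of the 50 lysosomal genes, 22 rose on MCD, 2 fell and 26 did not pass the test. Among all genes tested 14.8% rose and 9.97% fell. The rises included the proteases Ctsk, Ctss and Ctsd, the sphingolipid genes Asah1, Npc2 and Psap, the macrophage-associated membrane proteins Cd68 and Laptm5, and the pump subunit gene Atp6v0d2. Changes among the 50 ran from -1.08 for Gaa to 3.74 for Ctsk, with a median of 0.32, beside a median of 0.01 over all genes tested. In whole liver, more cells of a type and more RNA per cell cannot be told apart. Of the 22 that rose, 13 were raised by more than 2-fold, a size reached by 11.0% of all genes tested. All MCD libraries lay above all MCS libraries in 25 members and below them in 7, beside 23.9% and 21.3% of all genes tested, and in 18 members the diets overlapped. These counts are of TMM-scaled CPM. By TPM no member had all MCD libraries below all MCS libraries. Of the 7, Ctsh, Lamp2 and Laptm4a lay above by TPM, and Ctsf, Gaa, Npc1 and Scarb2 overlapped.

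**Figure D1:**
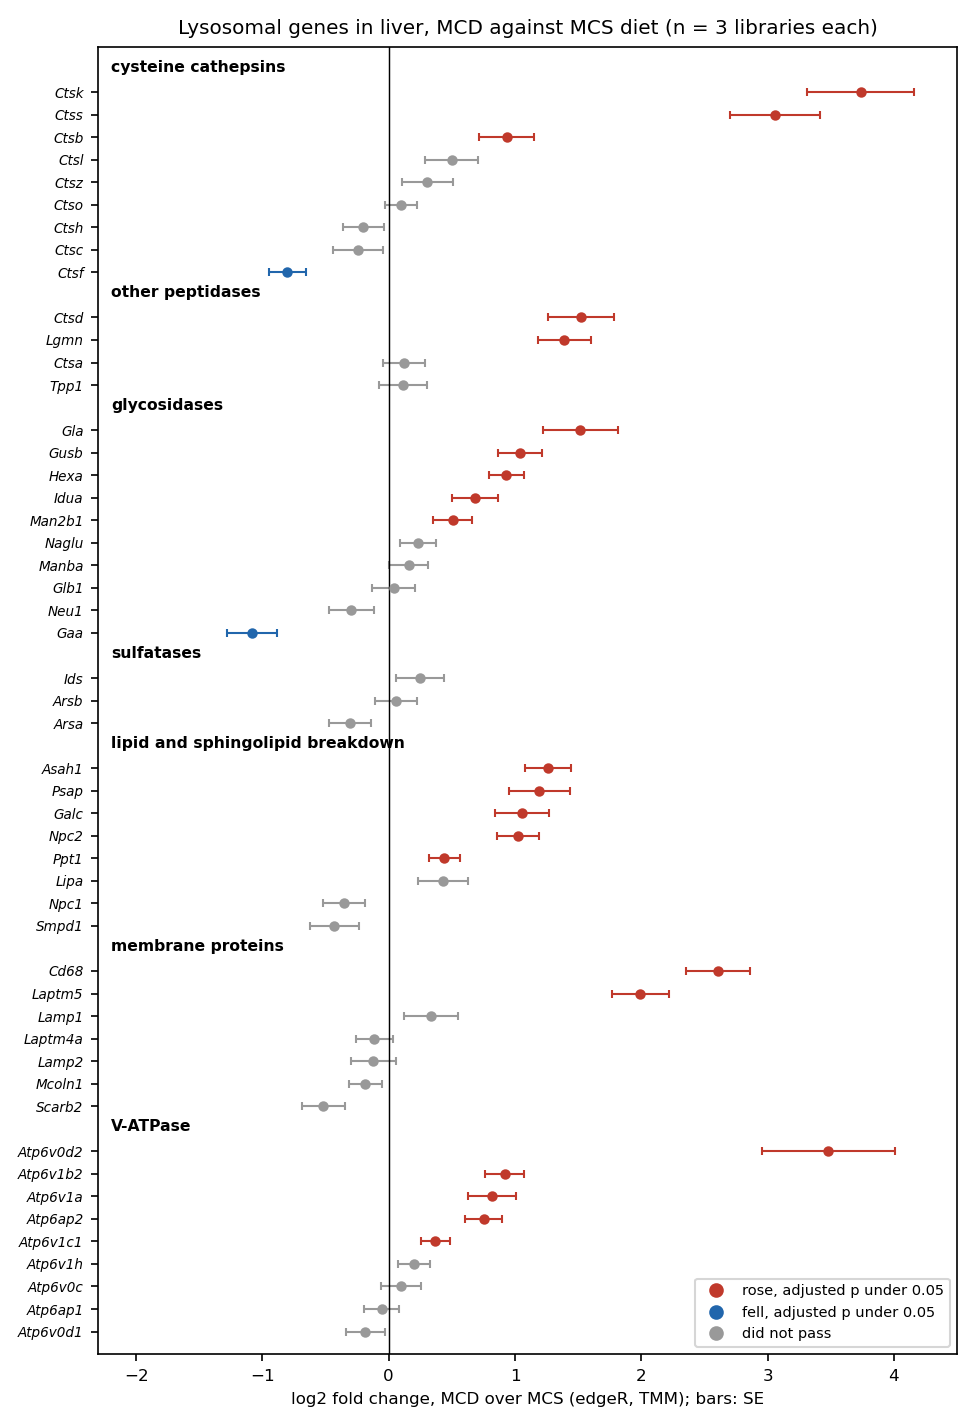
Log2 fold change of MCD over MCS for each of the 50 lysosomal genes, grouped by role, with bars for the standard error (edgeR, TMM scaling, 3 libraries per diet) and colour for the outcome of the test. Most groups hold both genes that rose and genes close to 0; Ctsk, Atp6v0d2, Ctss and Cd68 lie farthest to the right and Gaa and Ctsf farthest to the left.

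The number of members that rose depended on how the libraries were scaled. The TMM factors were 0.797 to 0.873 for the MCS libraries and 1.04 to 1.41 for the MCD libraries. With library size alone, without these factors, 40 members rose and none fell, beside 40.4% of all genes rising and 2.76% falling. The median change of all genes tested then moved from 0.01 to 0.57 and that of the members from 0.32 to 0.86. The authors' deposited table gave 35 of the 50 members as higher on MCD at a false discovery rate under 0.05 and none as lower, beside 20.5% and 1.31% of all its genes. Those shares are over all 21899 genes, including the ones that the count filter removed here. They are therefore not comparable with the shares over the 12599 genes tested. The 2 falls, in Ctsf and Gaa, were not passed with library size alone, and 12 members with small negative changes turned positive there; the 22 rises passed under both scalings. By group, library size alone gave rises in all 9 V-ATPase genes, 6 of 7 membrane proteins, 6 of 9 cysteine cathepsins, all 4 other peptidases, 7 of 10 glycosidases, 2 of 3 sulfatases and 6 of 8 lipid genes.

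**Figure D2:**
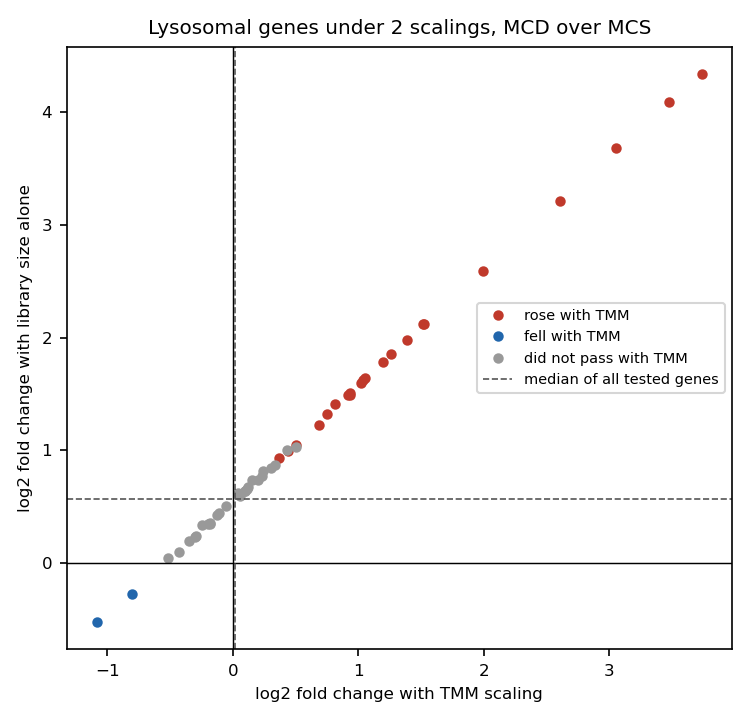
Log2 fold change of each lysosomal gene with TMM scaling (x axis) and with library size alone (y axis), coloured by the outcome under TMM, with dashed lines at the median of all genes tested. The points are shifted upward together, and the median of all genes lies at 0.01 on the x axis and 0.57 on the y axis.

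Cysteine cathepsins are the papain-family proteases of the lysosome. Of 9 members, 3 rose (Ctsk, Ctss and Ctsb), 1 fell (Ctsf) and 5 did not pass, with a median change of 0.31. Ctsk (ENSMUSG00000028111), the collagen-cleaving protease best known from osteoclasts, was at 0.403, 0.756 and 0.883 CPM in the MCS libraries and at 9.17, 5.56 and 12.6 CPM in the MCD libraries. Even the lowest MCD library was several times above the highest MCS library. The change was 3.74 ± 0.42 (adjusted p = 0.00103, edgeR), a 13.3-fold rise from a low level. Ctss (ENSMUSG00000038642), which processes the invariant chain in antigen-presenting cells, stood at 36.0, 37.5 and 41.8 CPM on MCS and 269.6, 183 and 506 CPM on MCD. The MCS libraries lay close together, whereas the MCD libraries were spread widely with replicate 3 highest. The rise was 8.32-fold, 3.06 ± 0.36 on the log2 scale (adjusted p = 0.0012, edgeR).

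Ctsb, an abundant endo- and exopeptidase of most cells, measured 812, 768 and 728 CPM on MCS against 1395, 1312 and 1702 CPM on MCD, with no overlap. Its change was 0.93 ± 0.22 (adjusted p = 0.0159, edgeR). The adjusted p was 0.0736 with MCS replicate 1 left out, 0.0849 with MCS replicate 2 left out and 0.0621 with MCD replicate 1 left out, so the call ended in each case. Ctsf, a widely expressed member of the family, went the other way: 34.1, 37.2 and 39.2 CPM on MCS and 20.4, 24.5 and 18.4 CPM on MCD. Every MCD library was below every MCS library by CPM, whereas by TPM the diets overlapped. The change was -0.80 ± 0.15 (adjusted p = 0.00643, edgeR). With library size alone the change of Ctsf was -0.27 (adjusted p = 0.133).

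Ctsl, the cathepsin with the highest mean TPM of the 9, was at 527, 534 and 561 CPM on MCS and 724, 924 and 648 CPM on MCD. The diets did not overlap, but the MCD libraries were spread widely, and the change of 0.50 ± 0.21 did not pass (adjusted p = 0.111, edgeR). It passed with DESeq2 (0.49, adjusted p = 0.0234) and with library size alone (1.03, adjusted p = 0.0026). Ctsc, the dipeptidyl peptidase that activates granule proteases, had a change of -0.24 ± 0.20. The aminopeptidase gene Ctsh was at -0.20 ± 0.16, Ctso at 0.10 ± 0.13 and the carboxypeptidase gene Ctsz at 0.31 ± 0.20. None of these 4 passed.

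The mix of cathepsin transcripts differed between the diets. As a share of the summed TPM of the 9 genes, Ctss held 2.75%, 3.004% and 3.47% in the MCS libraries and 15.0%, 9.57% and 25.1% in the MCD libraries. Its mean share went from 3.07% ± 0.369 (SD, n = 3) to 16.6% ± 7.91 (SD, n = 3), without overlap. Ctsh held 21.3% ± 0.459 on MCS and 12.3% ± 1.49 on MCD (SD, n = 3), also without overlap in the opposite direction. Ctsb held 17.5% ± 0.216 and 22.0% ± 2.30. Ctsl was the largest on MCS in all 3 libraries, with 31.3% ± 2.39, and held 29.1% ± 6.07 on MCD; in MCD replicate 3 its share of 23.1% was below those of Ctss (25.1%) and Ctsb (24.2%). Ctsk stayed a minor transcript, with 0.0492% ± 0.0196 on MCS and 0.426% ± 0.153 on MCD. These shares are a description and do not depend on the scaling between libraries.

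**Figure D3:**
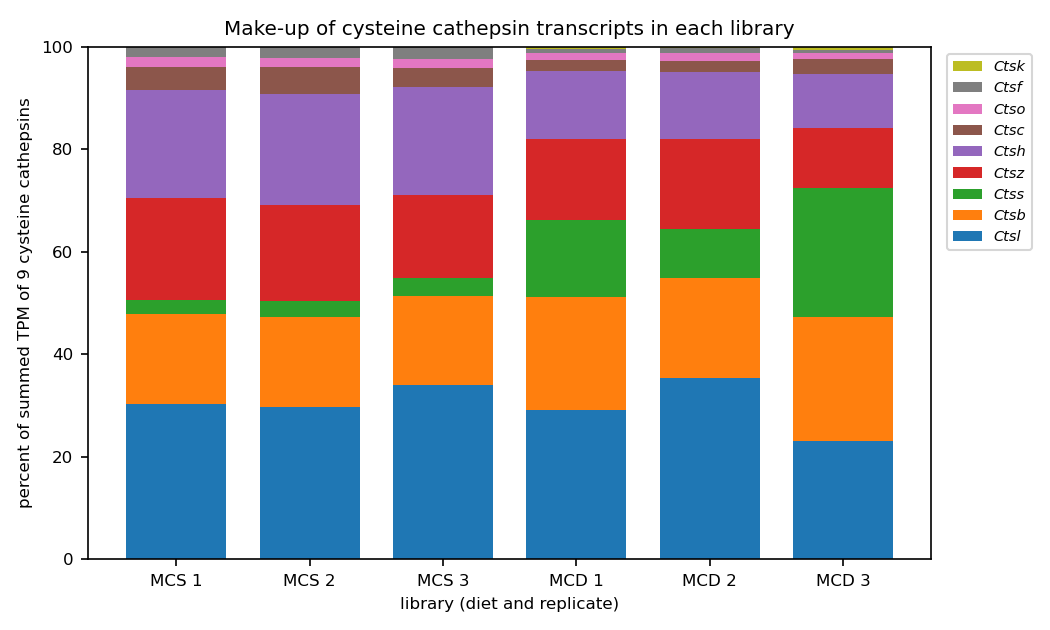
Percent of the summed TPM of the 9 cysteine cathepsin genes held by each gene, one stacked bar per library (3 MCS, 3 MCD). The Ctss segment grows from between 2.75% and 3.47% in the MCS bars to between 9.57% and 25.1% in the MCD bars, while the Ctsh segment shrinks.

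Of the 4 other peptidases, 2 rose and 2 did not pass, with a median change of 0.76. Ctsd (ENSMUSG00000007891), the major aspartic protease of lysosomes, was at 485, 521 and 458 CPM on MCS and at 1283, 1062 and 1865 CPM on MCD. The lowest MCD library was above 2 times the highest MCS library. Its change was 1.52 ± 0.26 (adjusted p = 0.00505, edgeR), a 2.88-fold rise. By TPM, Ctsd was number 5 among the members on MCS (314 ± 7.75 TPM, SD, n = 3) and number 1 on MCD (1497 ± 701 TPM, SD, n = 3). Lgmn, the asparagine-specific endopeptidase that also matures other cathepsins, stood at 77.4, 78.7 and 87.2 CPM on MCS and 184, 172 and 282 CPM on MCD. Again the diets were clearly separate, with a change of 1.39 ± 0.21 (adjusted p = 0.00307, edgeR). The serine carboxypeptidase Ctsa, which also protects the sialidase and galactosidase of the lysosome, had 0.12 ± 0.17, and the tripeptidyl peptidase Tpp1 had 0.11 ± 0.19; neither passed.

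Glycosidases trim sugars from glycoproteins, glycolipids, glycosaminoglycans and glycogen. Of 10 members, 5 rose, 1 fell and 4 did not pass, with a median change of 0.37. Hexa, the alpha subunit of beta-hexosaminidase, was at 69.0, 76.7 and 72.4 CPM on MCS and at 130.0, 136 and 150.03 CPM on MCD. Both diets were tight, and the change was 0.93 ± 0.14 (adjusted p = 0.00273, edgeR). Gusb, the beta-glucuronidase, was at 33.5, 43.3 and 31.0 CPM against 69.0, 65.2 and 87.3 CPM, without overlap. Its change was 1.04 ± 0.18 (adjusted p = 0.00489, edgeR).

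Gla, the alpha-galactosidase A that removes terminal galactose from globotriaosylceramide, had 5.98, 6.04 and 3.42 CPM on MCS and 12.7, 11.3 and 19.99 CPM on MCD. MCS replicate 3 was the lowest and MCD replicate 3 the highest, and the change was 1.52 ± 0.30 (adjusted p = 0.00874, edgeR). The iduronidase Idua rose by 0.68 ± 0.18 (adjusted p = 0.0281, edgeR) and the alpha-mannosidase Man2b1 by 0.51 ± 0.16 (adjusted p = 0.0452, edgeR). Both calls were lost when any 1 library other than MCD replicate 3 was left out: the adjusted p of Idua was then 0.0577 to 0.114 and that of Man2b1 0.053 to 0.208. Man2b1 also missed the threshold with DESeq2's size factors (adjusted p = 0.0527) and with no count filter (0.0677).

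Gaa (ENSMUSG00000025579), the acid alpha-glucosidase that breaks down glycogen in lysosomes, fell. It was at 147, 149 and 91.6 CPM on MCS and at 60.8, 62.2 and 60.0 CPM on MCD. By CPM the MCD libraries agreed closely and all lay under the lowest MCS library, replicate 3. By TPM Gaa was at 56.6, 55.0 and 37.2 on MCS and at 37.5, 32.6 and 44.3 on MCD, with overlap. The change was -1.08 ± 0.20 (adjusted p = 0.0066, edgeR), the most negative of the 50. With library size alone it was -0.52 (adjusted p = 0.0539). The beta-galactosidase Glb1 (0.04 ± 0.17), the heparan sulfate enzyme Naglu (0.23 ± 0.14), the sialidase Neu1 (-0.29 ± 0.18) and the beta-mannosidase Manba (0.16 ± 0.16) did not pass.

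None of the 3 sulfatases passed. Arsa, the arylsulfatase that acts on sulfatide, was at 94.9, 94.1 and 80.0 CPM on MCS and 82.8, 76.6 and 58.5 CPM on MCD. The diets overlapped, and the change was -0.30 ± 0.17 (adjusted p = 0.208, edgeR). Arsb, which acts on dermatan and chondroitin sulfate, was at 0.06 ± 0.16 and the iduronate sulfatase Ids at 0.25 ± 0.19, and both overlapped as well.

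Of the 8 genes of lipid and sphingolipid breakdown, 5 rose and none fell, with a median change of 0.73. Asah1, the acid ceramidase that splits ceramide into sphingosine and fatty acid, was at 34.6, 39.3 and 32.9 CPM on MCS and at 84.9, 66.4 and 105 CPM on MCD. The change was 1.26 ± 0.18 (adjusted p = 0.00246, edgeR), with a wide gap between the diets. Npc2, the soluble carrier that hands cholesterol to NPC1, was at 74.6, 74.4 and 77.3 CPM against 138, 137 and 185 CPM. The MCS libraries were almost equal, and the change was 1.02 ± 0.16 (adjusted p = 0.00385, edgeR). Psap, the precursor of the saposins that present sphingolipids to their hydrolases, was at 745, 778 and 644 CPM on MCS and 1529, 1367 and 2061 CPM on MCD. All MCD libraries were well above the MCS range, with a change of 1.19 ± 0.24 (adjusted p = 0.00993, edgeR); without MCS replicate 1 the adjusted p was 0.0546.

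Galc, the galactosylceramidase, rose from 7.77, 6.80 and 6.18 CPM to 13.4, 11.5 and 18.2 CPM, a change of 1.06 ± 0.21 (adjusted p = 0.0101, edgeR). The thioesterase Ppt1, which removes palmitate from proteins, rose by 0.44 ± 0.12 (adjusted p = 0.0326, edgeR). Its call was lost when any MCS library or MCD replicate 1 was left out (adjusted p 0.0574 to 0.145). The partner of Npc2 did not move with it: Npc1, the membrane protein that exports cholesterol from lysosomes, was at 243, 276 and 228 CPM on MCS and 213, 196 and 176 CPM on MCD. Every MCD library was below the MCS range, but the change of -0.35 ± 0.17 did not pass (adjusted p = 0.15, edgeR). That separation depended on the scaling: by TPM the diets overlapped, and with library size alone the change of Npc1 was 0.20 (adjusted p = 0.256, edgeR). The difference between Npc1 and Npc2 was not itself tested. Lipa, the acid lipase for cholesteryl esters and triglycerides, had 0.43 ± 0.20 (adjusted p = 0.147, edgeR). Smpd1, the acid sphingomyelinase, had -0.43 ± 0.19 (adjusted p = 0.13, edgeR); without MCD replicate 2 it was -0.59 (adjusted p = 0.0457).

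Of the 7 membrane proteins, 2 rose and 5 did not pass, with a median change of -0.11. Cd68, the heavily glycosylated LAMP-family protein used as a macrophage marker, was at 17.1, 19.0 and 16.7 CPM on MCS and at 95.4, 75.01 and 150.5 CPM on MCD. All MCD libraries lay well above the MCS libraries, which were close together, while the MCD libraries themselves were spread widely. Its change was 2.61 ± 0.25 (adjusted p = 0.000485, edgeR), the smallest adjusted p among the members, and 6.09-fold in size. Laptm5, a lysosomal transmembrane protein of blood-derived cells, was at 32.3, 31.9 and 34.3 CPM against 117, 96.7 and 178 CPM. Here too MCD replicate 3 was highest and MCD replicate 2 lowest, and the change was 1.99 ± 0.22 (adjusted p = 0.000998, edgeR).

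The structural proteins of the lysosomal membrane gave other values. Lamp1, the member with the highest TPM on MCS (539.9 ± 21.7, SD, n = 3), was at 865, 901 and 872 CPM on MCS and at 1196, 1222 and 908 CPM on MCD. Only MCD replicate 3 was close to the MCS range, and the change of 0.33 ± 0.21 did not pass (adjusted p = 0.279, edgeR). That closeness depended on the scaling. By TPM Lamp1 was at 523, 532 and 564 on MCS and at 1167, 996 and 1055 on MCD. With library size alone its change was 0.87 (adjusted p = 0.0045, edgeR). Lamp2, which serves chaperone-mediated and macroautophagy, was at 532, 522 and 566 CPM on MCS and 500.0, 517 and 473 CPM on MCD, a change of -0.12 ± 0.18 (adjusted p = 0.649, edgeR). By TPM every MCD library of Lamp2 was above every MCS library. With library size alone its change was 0.43 (adjusted p = 0.0493, edgeR). Scarb2, a lysosomal membrane protein that also acts as a sorting receptor for a hydrolase, was at 246, 261 and 195 CPM against 160.1, 159.8 and 170.3 CPM. Its change of -0.52 ± 0.17 lay close to the threshold (adjusted p = 0.0535, edgeR) and passed with DESeq2 (adjusted p = 0.00578), with DESeq2's size factors (0.0479) and without replicate 3 of either diet (0.038 without the MCS library, 0.0492 without the MCD library). Its sign turned with library size alone (0.05). The membrane protein Laptm4a (-0.11 ± 0.15) and the cation channel Mcoln1 (-0.18 ± 0.13) did not pass.

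**Figure D4:**
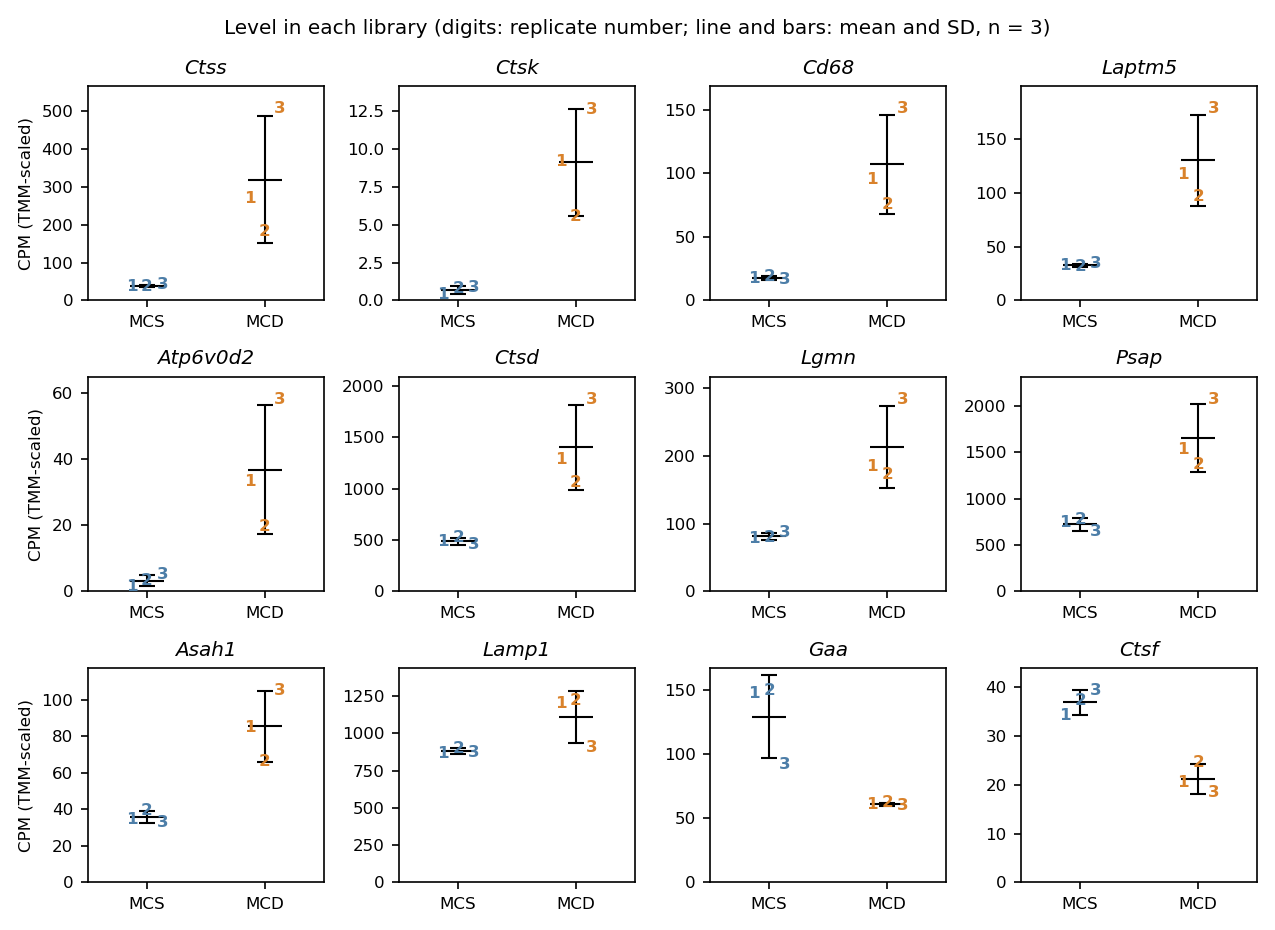
TMM-scaled CPM of selected lysosomal genes in each of the 6 libraries (digits are replicate numbers), with the mean and SD of each diet (n = 3). For Ctss, Ctsd and Cd68 the MCD points lie apart from the MCS points with replicate 3 highest, whereas for Gaa the MCD points lie at 60.0 to 62.2 CPM, below all MCS points. By TPM, not shown in the figure, the diets overlap for Gaa.

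Of the 9 V-ATPase genes, 5 rose and 4 did not pass, with a median change of 0.37. Atp6v1b2, the B subunit of the ATP-splitting head, was at 53.1, 61.1 and 63.2 CPM on MCS and at 107, 100.03 and 128 CPM on MCD. No library overlapped, and the change was 0.92 ± 0.15 (adjusted p = 0.00438, edgeR). Its partner in the head, the catalytic A subunit gene Atp6v1a, was at 43.4, 39.0 and 42.5 CPM against 69.3, 56.7 and 94.2 CPM. The change was 0.82 ± 0.19 (adjusted p = 0.0157, edgeR), and the call was lost without MCS replicate 1 (adjusted p = 0.0594) or MCS replicate 2 (0.0721). Atp6ap2, the accessory protein also known as the prorenin receptor, was at 33.2, 25.9 and 25.4 CPM on MCS and 46.0, 45.1 and 51.3 CPM on MCD, a change of 0.75 ± 0.15 (adjusted p = 0.00838, edgeR). The stalk subunit gene Atp6v1c1 rose by 0.37 ± 0.12 (adjusted p = 0.0459, edgeR). That call was lost in 10 of 16 alternatives, among them each removal of 1 library (adjusted p 0.0632 to 0.162).

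Atp6v0c, the proton-carrying ring subunit and the V-ATPase member with the highest TPM, was at 208, 208 and 188 CPM on MCS and at 207, 238 and 201 CPM on MCD. The diets overlapped, and the change was 0.10 ± 0.16 (adjusted p = 0.682, edgeR). By TPM Atp6v0c did not overlap, with 239, 233 and 231 on MCS and 384, 369 and 442 on MCD. With library size alone its change was 0.64 (adjusted p = 0.007, edgeR). The regulatory V1 subunit gene Atp6v1h had 0.20 ± 0.13 and the accessory protein gene Atp6ap1 had -0.06 ± 0.14; neither passed.

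The d subunit, which joins V1 to the membrane ring, is encoded by a ubiquitous gene, Atp6v0d1, and by Atp6v0d2, best known from osteoclasts and macrophages. Atp6v0d1 was at 80.7, 90.0 and 90.4 CPM on MCS and at 75.5, 89.8 and 64.6 CPM on MCD, with overlap and a change of -0.18 ± 0.16 (adjusted p = 0.414, edgeR). That overlap depended on the scaling. By TPM Atp6v0d1 was at 66.8, 72.7 and 80.1 on MCS and at 100.7, 100.1 and 102.7 on MCD. With library size alone its change was 0.35 (adjusted p = 0.046, edgeR). Atp6v0d2 (ENSMUSG00000028238) was at 1.61, 3.25 and 5.02 CPM on MCS and at 33.1, 19.5 and 57.9 CPM on MCD. It varied among the libraries of both diets, yet the lowest MCD library was above the highest MCS library. The change was 3.48 ± 0.53 (adjusted p = 0.00548, edgeR), an 11.2-fold rise. Of the summed TPM of the pair, Atp6v0d2 made up 1.27%, 2.26% and 3.44% on MCS and 22.0%, 12.2% and 36.5% on MCD. The mean share was 2.32% ± 1.09 on MCS and 23.6% ± 12.2 on MCD (SD, n = 3), a difference of 21.3 percentage points. An exact permutation test, two-sided, gave p = 0.1, the smallest that 3 against 3 libraries allow.

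**Figure D5:**
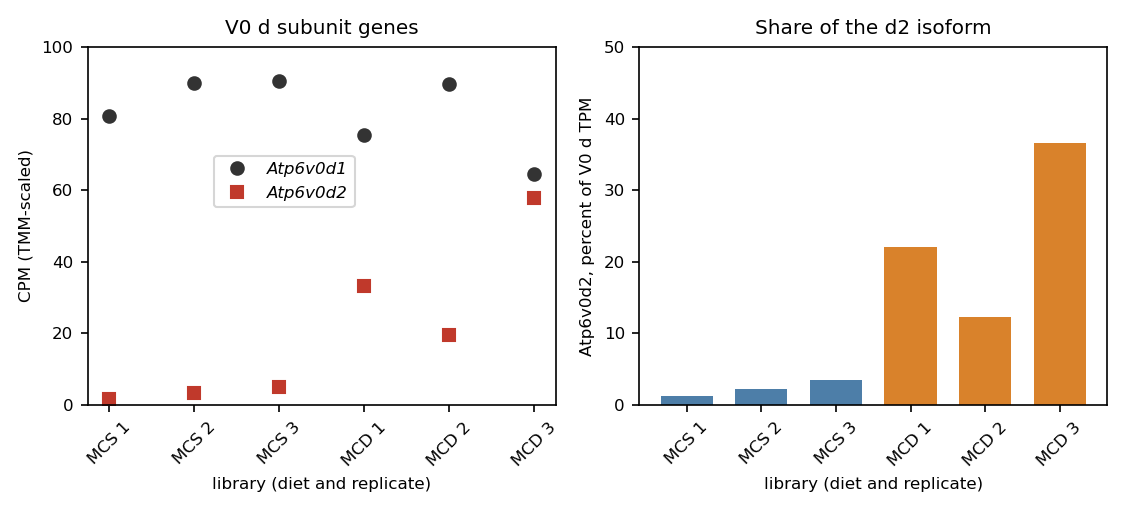
Left, TMM-scaled CPM of the V0 d subunit genes Atp6v0d1 and Atp6v0d2 in each library; right, Atp6v0d2 as a percent of the summed TPM of both. With TMM scaling Atp6v0d1 stays between 64.6 and 90.4 CPM in all libraries, whereas by TPM it is higher in every MCD library than in every MCS library. The share of Atp6v0d2 is at most 3.44% in the MCS libraries and at least 12.2% in the MCD libraries.

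Markers of macrophages moved with the members that rose. Of 15 markers of macrophages of any origin, 12 rose, 2 fell and 1 did not pass; their summed level was 469 to 589 CPM on MCS and 1198 to 2544 CPM on MCD, and none was at 0. Fcer1g (2.18 ± 0.21, adjusted p = 0.000485, edgeR) and Cd14 (2.94 ± 0.29, adjusted p = 0.000489, edgeR) had the smallest p, and the scavenger receptor Cd163 fell (-2.65 ± 0.69, adjusted p = 0.0315, edgeR). Of 7 genes of lipid-associated macrophages 6 rose, among them Lgals3 (4.47 ± 0.27) and Gpnmb (7.05 ± 0.49) with the smallest p, from a summed 73.1 to 173 CPM to 794 to 2047 CPM. Of 6 markers of resident Kupffer cells none rose, and Clec4f (-1.20 ± 0.27) and Timd4 (-2.40 ± 0.71) fell. These falls were not stable: without MCS replicate 2 neither passed, and Cd163 lost its call in 4 of the 6 removals of 1 library. Their part in the changes of the lysosomal genes was not tested.

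The order of the MCD libraries was shared as well. Among the 22 members that rose, 19 were highest in MCD replicate 3 and 18 had the order replicate 3, then 1, then 2. The share of all genes tested, or of all genes that rose, with this order was not counted. Among the 26 that did not pass, 6 were highest in MCD replicate 3 and 16 in MCD replicate 2. These orders are of TMM-scaled CPM, with factors of 1.21, 1.04 and 1.41 for MCD replicates 1, 2 and 3. For genes with small changes the order depended on that scaling. Ctsh, Ctsa, Tpp1, Lamp2, Laptm4a and Atp6v0c were highest in MCD replicate 2 by CPM and in MCD replicate 3 by TPM. By TPM, most of the 26 that did not pass were highest in MCD replicate 3. Only Ctsl among them was highest in MCD replicate 2 by TPM. Of the markers of macrophages of any origin, 13 of 15 were highest in MCD replicate 3 and 11 had the same order as most members that rose, as had all 7 genes of lipid-associated macrophages. All 10 hepatocyte markers were highest in MCD replicate 2, and 4 of them fell on MCD, with Tat (-1.39 ± 0.29) and Pck1 (-1.33 ± 0.28) having the smallest p; none of the 4 passed without MCS replicate 2 or MCD replicate 1. Of the 8 markers of stellate cells and myofibroblasts, 3 rose (Col1a1, Col3a1 and Pdgfrb) and all 8 had the order of most members that rose; none of the 8 passed without MCS replicate 2, MCD replicate 1 or MCD replicate 3, whereas 6 rose with DESeq2 and 7 with library size alone or without MCD replicate 2. Among markers of other cells, 3 of 4 tested for cholangiocytes, 1 of 5 for T, NK and B cells, 1 of 3 for neutrophils, 1 of 4 osteoclast-type genes and none of 7 for sinusoidal endothelium rose. Replicate 3, then 1, then 2 was also the order of 6 of 7 sinusoidal endothelium, 5 of 5 cholangiocyte and 4 of 5 neutrophil markers. It was the order of 2 of 4 osteoclast-type genes, 1 of 7 markers of T, NK and B cells and 0 of 6 Kupffer cell markers. With replicate 3 of both diets left out, 22 members rose, of which 21 had also risen with all libraries (Atp6v1c1 was lost and Ctsl gained), and the members that fell went from 2 to 5 (Ctsc, Ctsf, Gaa, Scarb2 and Smpd1).

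The members together took up 0.639%, 0.644% and 0.639% of all counts in the MCS libraries and 1.36%, 1.14% and 1.80% in the MCD libraries. These shares do not use the TMM factors. Without those factors the median change of all genes tested was 0.57 and 40.4% of them rose, so part of this difference was common to genes in general. The members' shares were nearly the same in the 3 MCS libraries and differed among the MCD libraries in the order described above. Within the members' summed TPM, Ctsd held 6.97% ± 0.216 on MCS and 13.1% ± 2.82 on MCD, and Psap held 8.29% ± 0.486 and 12.5% ± 1.73 (SD, n = 3), while Lamp1 held 12.0% ± 0.406 and 10.1% ± 2.28. On MCS the highest members by TPM were Lamp1, Ctsl, Psap, Lamp2 and Ctsd, and on MCD they were Ctsd, Psap, Lamp1, Ctsl and Ctsb. Neighbours at the top of the MCD order, Ctsd at 1497 ± 701 TPM and Psap at 1407 ± 556 TPM, did not differ beyond their spread.

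Other genes of the lysosome were counted in the same way, with the same shares of all genes (14.8% higher, 9.97% lower) as background. These counts move strongly with the scaling: with library size alone, under which 40.4% of all genes rose, 9 of the 11 other V-ATPase genes, 17 of the 27 other hydrolases, 9 of the 12 sorting genes, 14 of the 20 genes of the TFEB list and 11 of the 20 transporters rose. With TMM, of 11 other V-ATPase subunit genes tested 2 rose, Atp6v0e (0.63 ± 0.12) and its paralog Atp6v0e2 (1.52 ± 0.29), and none fell; Tcirg1, the a3 subunit of osteoclasts and immune cells, was at 0.42 ± 0.19 and did not pass. Of 27 other hydrolase genes 3 rose, among them the acid nuclease Dnase2a (0.93 ± 0.16) and the sulfatase Galns (1.05 ± 0.19). The sulfatase Arsg fell (-0.75 ± 0.20), and its call was lost without MCS replicate 1 or 2 and with library size alone. Of 12 genes that tag and sort enzymes by mannose 6-phosphate 1 rose, the phosphotransferase Gnptab (0.57 ± 0.16, adjusted p = 0.0356, edgeR). That call was lost in 5 of the 6 removals of 1 library.

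Of 20 genes of the TFEB family and of nutrient sensing on the lysosome, 4 rose and 1 fell (Rptor). Rragd, a Rag GTPase that recruits the kinase complex mTORC1 and its substrates to lysosomes, was at 1.21, 1.21 and 2.43 CPM on MCS and at 19.3, 13.5 and 26.8 CPM on MCD. The diets were far apart, with a change of 3.60 ± 0.36 (adjusted p = 0.000552, edgeR). Tfec, a relative of TFEB, rose by 1.80 ± 0.44 (adjusted p = 0.0206, edgeR), a call that ended when MCD replicate 1, or either of MCS replicates 1 and 2, was left out. Rptor, the scaffold of mTORC1, fell by 0.68 ± 0.15 (adjusted p = 0.0141, edgeR), a call lost without MCS replicate 1 or 2 and with library size alone. Mitf (1.40 ± 0.36) and Rragc (0.38 ± 0.12) rose too, but lost their calls in 5 and 6 of the 6 removals of 1 library. Tfeb (0.32 ± 0.19) and Tfe3 (0.32 ± 0.13) did not pass.

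Of 20 lysosomal transporters and channels 7 rose and 2 fell. The tetraspanin Cd63 was at 7.36, 6.35 and 6.84 CPM on MCS and at 88.2, 62.2 and 123 CPM on MCD, a change of 3.73 ± 0.26 (adjusted p = 0.000156, edgeR). The metal transporter of phagosomes Slc11a1 rose by 2.11 ± 0.29, and the channel Tpcn1 fell by 0.96 ± 0.20, a call that was lost without MCD replicate 1 (adjusted p = 0.0511). The amino acid transporter gene Slc36a1 fell by 0.87 ± 0.22 and lost its call in 4 of the 6 removals and with library size alone (-0.33, adjusted p = 0.174). Of the 2 cathepsin inhibitor genes tested, Cstb, a cytosolic inhibitor of cysteine cathepsins, rose (1.81 ± 0.14, adjusted p = 0.000224, edgeR), and the secreted Cst3 was at 0.25 ± 0.16. Of 22 autophagosome genes none rose and 5 fell with TMM (Ulk1, Map1lc3a, Gabarapl2, Wipi2 and Rubcn), with a median change of -0.21, whereas with library size alone 9 rose and none fell. The kinase gene Ulk1 was at -0.76 ± 0.17 and the LC3 gene Map1lc3a at -0.68 ± 0.17, and both calls ended with library size alone and when MCD replicate 1, or either of MCS replicates 1 and 2, was left out.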

How the data were processed

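The 50 genes and the lists of other genes were chosen with earlier results of these data known. Whole-liver polyA RNA-seq of 3 MCS and 3 MCD libraries was used. The submitters' processing notes list RSEM, HISAT2 2.1.0, Bowtie2 2.2.8, StringTie 1.3.1, fastp 0.18.0 and the GRCm39 build, without roles; strandedness is not stated. Per the file headers, the authors deposited 1 table with a count and a TPM per gene and library, TPM means, log2 fold changes, p-values and FDR. The deposited counts were handled as estimated counts made whole by the authors, since 64 values have a count of 0 and a TPM above 0.

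Counts were tested with edgeR 4.0.16 in R 4.3.3 (TMM, filterByExpr with a minimum count of 10, robust quasi-likelihood, diet only). CPM are TMM-scaled; 3 counts equal 0.104 to 0.227 CPM, which bounds counting error only. DESeq2 1.42.0, limma 3.58.1 (voom, and log2(TPM + 1) or log2(TPM + 0.1)), other filters and scalings, a replicate block and removal of each library were tried, and removal of replicate 3 of both diets was added after seeing the data. The method was tested on simulated data. All 50 genes are named with their change. Values in every library are given for the smallest-p genes of each role and its most abundant gene, and for some more members chosen after their values were seen; from each other list the smallest-p genes are named, with a few more chosen likewise. Some genes that the rule names are not reported here. Reads shared by related genes could be split by the counting. No gene coordinates were used, and the RefSeq promoters are of another build than the counts.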

Additional observations from a re-analysis of the deposited data

How the results depend on the processing

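Main counts were 3117 genes changed, with 22 members higher and 2 lower. With library size alone they were 5443, 40 and 0. Limma on log2(TPM + 1) gave 5713, 41 and 0 with the count filter and 5014, 40 and 0 without it. Limma on log2(TPM + 0.1) gave 5992, 42 and 0. The edgeR test without the count filter gave 3187, 20 and 2. At an adjusted p under 0.01, 1058 genes passed. Leaving out 1 library gave 1347 to 4435 genes, 15 to 21 members higher and 2 to 3 lower; a diet left with 2 libraries shares its estimate of the spread with the other. The lowest count, 1347, was without MCS replicate 2, and counts of 1379 and 1472 were found without MCS replicate 1 and MCD replicate 1. Without replicate 3 of both diets 5 members were lower. Of the 22 members that rose, 15 passed in all 16 alternatives. The difference in the V0 d isoform share ran from 14.8 to 26.9 percentage points when 1 library was left out. The replicate block gave 3283 genes, 19 members higher (Man2b1, Ppt1 and Atp6v1c1 lost) and 3 lower (Smpd1 added). The labels state no pairing of replicate numbers, so the main test did not pair them. Deviations of same-numbered libraries correlated at 0.063, 0.147 and 0.246. Of the 6 libraries, 5 correlated best with their own number, a hint from the data and not the design.

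These small changes turned sign, and none of them passed in the main test. With library size alone, TPM + 1 (with or without the filter) and TPM + 0.1, in that order, they were 0.24, 0.35 and 0.36 for Arsa, 0.51, 0.59 and 0.60 for Atp6ap1, 0.35, 0.47 and 0.47 for Atp6v0d1, 0.34, 0.39 and 0.40 for Ctsc, 0.35, 0.48 and 0.48 for Ctsh, 0.43, 0.50 and 0.50 for Lamp2, 0.44, 0.55 and 0.55 for Laptm4a, 0.36, 0.39 and 0.41 for Mcoln1, 0.24, 0.36 and 0.37 for Neu1, 0.20, 0.31 and 0.31 for Npc1, 0.050, 0.16 and 0.16 for Scarb2, and 0.10, 0.21 and 0.22 for Smpd1. With 1 library left out, Arsb ran from -0.057 (without MCD replicate 1) to 0.21, Atp6v0c from -0.011 (MCD replicate 2) to 0.15, Glb1 from -0.13 (MCD replicate 3) to 0.12 and Tpp1 from -0.050 (MCS replicate 3) to 0.20. Without replicate 3 of both diets, Glb1 was -0.15 and Manba -0.011, whereas Manba was 0.051 to 0.26 with 1 library left out. Apart from the scalings, whose construction sets the shift, the cause was not tested.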
